A study of Mus musculus with 9 samples.

Results

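The core genes of planar cell polarity studied here in embryonic mouse cortex are 10 genes of the Celsr, Vangl, Prickle and Dvl families, chosen by name. They are *Celsr1*, *Celsr2*, *Celsr3*, *Vangl1*, *Vangl2*, *Prickle1*, *Prickle2*, *Dvl1*, *Dvl2* and *Dvl3*, and all 10 were among the 14670 genes of the expression table. RNA of cerebral cortex at embryonic day 16.5 was sequenced from 3 genotypes with 3 libraries each, namely controls and mutants of *Fzd3* or *Celsr3*. The comparison asks how cortical transcripts differ when the receptor *Fzd3* or its partner *Celsr3* is lost. The labels give +/+ for controls and -/- for both mutants, whereas the methods describe controls as littermates that were wild-type or heterozygous. Mutants were on a mixture of C57Bl/6 and CD1. Exon 3 is the part of *Fzd3* deleted in the mutant allele, as stated where conditional mutants are described. Which part of *Celsr3* is missing is not given in the sources used here. Cortex was microdissected, and RNA was extracted with Trizol according to the labels and with an RNeasy kit according to the methods. Libraries are numbered 1 to 3 in controls and *Fzd3* mutants, and 1, 2 and 4 in *Celsr3* mutants. The methods list as many cortical samples per genotype as there are libraries, and say of animal work in general that no fewer animals than that were used. Litters, pooling of embryos and the animal behind each library are not given in the sources used here, so p-values measure only the spread between these samples, part of which may be technical.

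Planar cell polarity orients cells within the plane of a tissue. The atypical cadherins Celsr bridge neighbouring cells, while Frizzled receptors with Dishevelled proteins (Dvl) and Vangl with Prickle proteins gather at opposite sides of each cell. The pathway is best known for closing the neural tube and aligning the hair cells of the inner ear, and in the forebrain for the growth of long axon tracts.

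Expression is given as CPM, read counts scaled to a fixed total per library, with 1 value per gene and library. The steps between values correspond to an estimated 39857305 to 69600589 reads on listed genes per library. The members covered very different depths, from an estimated 73 to 132 reads for *Vangl1* and from 7979 to 16756 reads for *Celsr2*. Differences were tested with limma on log2(CPM + 0.5), on which fold changes of weakly expressed genes come out too small, and adjusted over all 14670 genes with a threshold of 0.05. Intervals are 95% confidence intervals of that fit. Both mutants were compared with the same 3 controls, so these comparisons are not independent, and the mutants were also compared directly.

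The libraries were checked before the genotypes were compared. *Fzd3* mutant libraries formed a group of their own, with correlations across genes of at least 0.994 with each other and of at most 0.986 with any other library. *Celsr3* mutant replicate 4 stood apart by meningeal fibroblast genes, of which 5 of 6 are in the table and *Lum* is not. Their summed CPM was 175 in that library, against 12.2, 16.2 and 10.5 in controls. *Col3a1* was at 87.6 CPM and *Col1a2* at 49.4 CPM there. Without that library, the number of members past the threshold was 6 in *Fzd3* mutants and 1 in *Celsr3* mutants, and that of all 14670 genes was 4279 and 39. With it, 7 and 1 members passed, and 4366 (29.8%) and 45 (0.307%) of all genes. Markers of cortical neurons were high in all genotypes. Of 12 markers of cortical excitatory neurons, 11 were listed (*Tubb3* was not), and *Neurod6* was at 872 to 929 CPM in controls, 932 to 947 in *Celsr3* mutants and 758 to 787 in *Fzd3* mutants, where it was lower (log2 difference -0.22, limma adjusted P = 0.00151). Of 7 striatal and ventral markers, 3 were listed, with a summed CPM of at most 9.81 in any library. Of 6 thalamic markers, 5 were listed (*Gbx2* was not), with a summed CPM of 173 to 223, mostly from *Lhx2*, which cortical progenitors also express. Of 5 choroid plexus markers, *Foxj1* was listed at 1.86 to 2.65 CPM, and *Ttr*, *Kl*, *Folr1* and *Clic6* were not.

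*Celsr3* (XLOC_033590; chr9:108826320-108852969, plus strand, GRCm38) encodes the neuronal member of the Celsr cadherins and is the gene mutated in one of the genotypes. It has 12063 bases of annotated exon. The 250 bases before its RefSeq start are shown because *Celsr3* is the member on which the knockout is checked. They lie at chr9:108825795-108826044 on the plus strand of GRCm38.p6, in no annotated exon, and end 276 bases before the annotated gene.
Celsr3 promoter: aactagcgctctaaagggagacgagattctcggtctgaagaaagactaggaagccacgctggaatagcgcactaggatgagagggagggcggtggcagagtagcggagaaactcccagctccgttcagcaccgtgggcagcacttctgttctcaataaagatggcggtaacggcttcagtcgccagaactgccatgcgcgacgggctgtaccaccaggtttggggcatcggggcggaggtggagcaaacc

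This window is 58% G and C, against a median of 52.4% over 32851 RefSeq promoters. It holds 17 CpG dinucleotides, against a median of 6. Neither the Tcf/Lef core (CTTTGA, or TCAAAG on the other strand) nor the Rbpj core (TGGGAA, or TTCCCA on the other strand) is among its letters. Of all promoters of this length, 13.8% hold the first motif and 21.6% the second.

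*Celsr3* mRNA was at 196, 243 and 214 CPM in controls and at 122, 139 and 118 CPM in *Celsr3* mutants. All 3 mutant libraries were below all 3 controls, but the transcript was far from absent. Its mean was 127 ± 10.8 CPM against 218 ± 23.8 in controls (s.d., n = 3), a ratio of 0.582. The log2 difference was -0.78 (interval -0.98 to -0.58, limma adjusted P = 0.00180), and it was -0.73 without replicate 4 (limma adjusted P = 0.0119). Without moderation of variances it missed the threshold (limma adjusted P = 0.177). The table gives no value for single exons, so a transcript lacking part of the gene cannot be told from an intact one. In *Fzd3* mutants, *Celsr3* was at 253, 213 and 255 CPM. These values overlapped controls, and the log2 difference of 0.14 (interval -0.06 to 0.34) did not pass the threshold (limma adjusted P = 0.261). It was 0.07 without control replicate 1 and 0.23 without control replicate 2 or *Fzd3* mutant replicate 2, and passed in none of 21 alternatives. *Celsr3* therefore differed between the mutants, by 0.92 (limma adjusted P = 7.29e-05).

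*Fzd3*, the Frizzled receptor mutated in the other genotype, was at 58.0, 67.7 and 46.9 CPM in controls and at 46.5, 39.8 and 59.6 CPM in *Fzd3* mutants. The ranges overlapped, and the log2 difference was -0.24 (interval -0.57 to 0.08, limma adjusted P = 0.240). Without *Fzd3* mutant replicate 3, the highest of the mutants, it was -0.40 (limma adjusted P = 0.0457), and with values corrected for GC content and length -0.34 (limma adjusted P = 0.0311). It was -0.38 without control replicate 3 (limma adjusted P = 0.0668), -0.12 without control replicate 2 (limma adjusted P = 0.618) and -0.11 without *Fzd3* mutant replicate 2 (limma adjusted P = 0.633). Over 21 alternatives its limma adjusted P ran from 0.0311 to 0.633. A gene total that can include transcript outside a deleted exon does not check these labels.

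*Celsr1* (XLOC_011628; chr15:85898929-86033777, minus strand) and *Celsr2* (XLOC_021198; chr3:108390851-108415552, minus strand) encode the other cadherins of the family. Both resemble *Celsr3* in length and composition, with 11007 and 11513 bases of exon and 58.8% and 58.4% G and C. Their reads can nevertheless be told apart. *Celsr1* shares 2 of its 11060 windows of 31 bases with *Celsr3*, and *Celsr2* shares 0 of 11600 with any other gene. No promoter entry was found for *Celsr1*.

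In *Celsr3* mutants, neither paralog changed beyond the spread between libraries. *Celsr1* was at 137, 193 and 141 CPM in controls and at 154, 180 and 162 CPM in *Celsr3* mutants. The mutant libraries lay within the control range, and the log2 difference was 0.09 (interval -0.18 to 0.36, limma adjusted P = 1.00). *Celsr2* was at 204, 275 and 203 CPM in controls and at 237, 258 and 228 CPM in *Celsr3* mutants. These values again lay within the control range, with a log2 difference of 0.10 (interval -0.16 to 0.35, limma adjusted P = 1.00). The intervals reach up to ratios of 1.28 for *Celsr1* and 1.27 for *Celsr2*, so they include rises of that size as well as no change. Control replicate 2 was the highest control for both genes. Without it the log2 differences were 0.25 and 0.24, still short of the threshold (limma adjusted P = 0.627 and 0.624). They were 0.00 and 0.03 without control replicate 1, and 0.02 for both genes without control replicate 3.

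In *Fzd3* mutants, by contrast, *Celsr1* was at 98.8, 87.5 and 111 CPM. All 3 libraries were below every control and every *Celsr3* mutant library. *Celsr1* fell by 36.9% from the control mean, with a log2 difference of -0.65 (interval -0.92 to -0.38, limma adjusted P = 0.00271). This decrease passed the threshold in each of 9 fits that left out 1 library (limma adjusted P from 0.00236 to 0.0139) and was -0.49 without control replicate 2. *Celsr1* also differed directly between *Fzd3* and *Celsr3* mutants, by -0.74 (limma adjusted P = 0.00143). *Celsr2* was at 208, 172 and 218 CPM in *Fzd3* mutants. These libraries overlapped controls but not *Celsr3* mutants. The log2 difference from controls was -0.18 (interval -0.44 to 0.07, limma adjusted P = 0.263), and -0.04 without control replicate 2. With values corrected for GC content and length it was -0.23 and passed the threshold (limma adjusted P = 0.0413, from a range of 0.0413 to 0.809 over 21 alternatives). Between the mutants, the log2 difference of *Celsr2* was -0.28 (limma adjusted P = 0.0924), which passed the threshold without control replicate 2 (limma adjusted P = 0.0234), in a fit of these genotypes alone (0.0334) and after the correction (0.0112).

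Because the 3 Celsr genes have similar length and GC content, their proportions were also compared within each library, as shares of the summed Celsr CPM per kb of exon. In controls, *Celsr1* made up 27.3 ± 1.03%, *Celsr2* 37.9 ± 1.13% and *Celsr3* 34.8 ± 2.08% (s.d., n = 3). The proportions varied much less between libraries than the CPM did. In *Celsr3* mutants, *Celsr3* made up 22.6 ± 0.379%, below every control, and *Celsr1* (32.3 ± 0.947%) and *Celsr2* (45.1 ± 0.823%) were above every control. A share of a sum must rise where another falls, and the CPM of *Celsr1* and *Celsr2* did not pass the test. In *Fzd3* mutants, *Celsr1* made up 19.5 ± 0.712%, below every control, *Celsr3* 43.1 ± 0.824%, above every control, and *Celsr2* 37.4 ± 0.456%, within the control range. The shares moved in different directions in the mutants, while the family sum overlapped controls in both. That sum was 46.2 ± 5.02 CPM per kb for *Fzd3* mutants and 46.4 ± 3.32 for *Celsr3* mutants, against 52.1 ± 8.28 for controls.

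**Figure D1:**
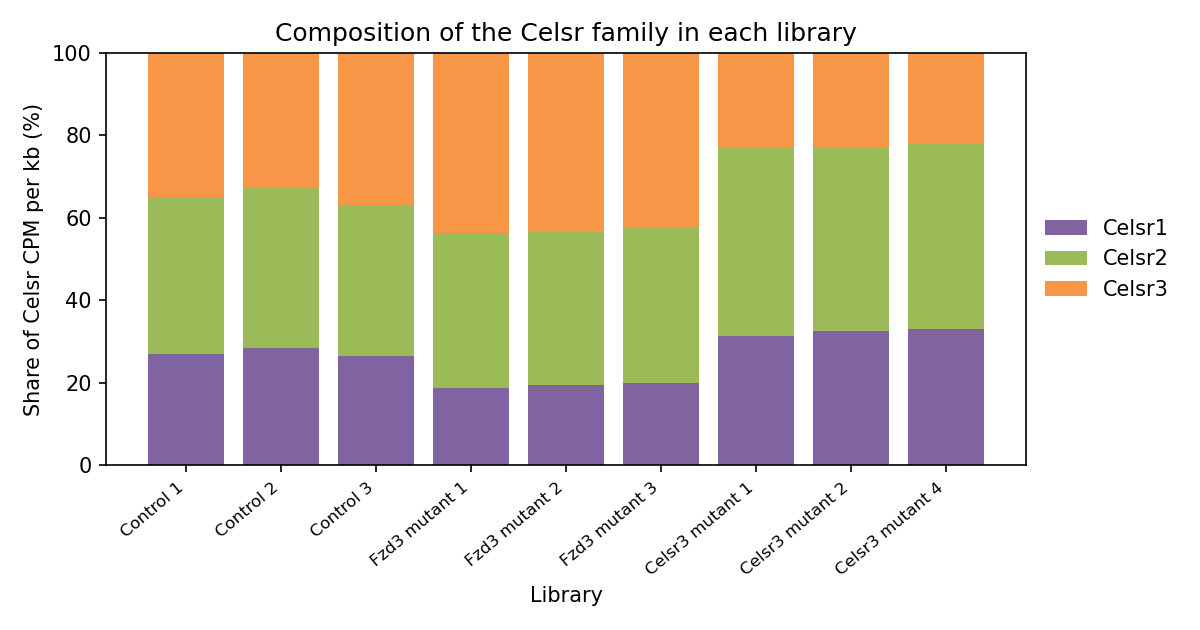
Share of each Celsr gene in the summed CPM per kb of the family, in percent, for each of the 9 libraries. *Celsr3* made up 42.2 to 43.7% in *Fzd3* mutants and 22.2 to 22.9% in *Celsr3* mutants, against 32.7 to 36.9% in controls.

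The genes whose profile over the 9 libraries was nearest to each Celsr gene were sought among the 11576 genes averaging 5 CPM or more, by the root mean square difference of centred log2 values. For *Celsr1* they were *Gm18025* (0.056), *Notch1* (0.069) and *Gpr98* (0.084). Chosen by likeness over the same libraries, these genes share the genotype pattern by selection. For *Celsr2* they were *Zmiz1* (0.051), *Dchs1* (0.053) and *Gm15415* (0.058). *Celsr3* had no neighbour as close, with *Lca5* at 0.185, *Gfra1* at 0.188 and *Gm16185* at 0.227. Its profile includes its own decrease in *Celsr3* mutants, where it is the mutated gene.

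*Vangl2* (XLOC_001808; chr1:172000960-172028444, minus strand) encodes a membrane protein that recruits Prickle and opposes Frizzled. It was at 161, 205 and 142 CPM in controls, at 117, 117 and 126 CPM in *Fzd3* mutants and at 151, 160 and 159 CPM in *Celsr3* mutants. Every *Fzd3* mutant library was below every other library, whereas *Celsr3* mutants lay within the control range. *Vangl2* fell by 29.2% in *Fzd3* mutants, with a log2 difference of -0.48 (interval -0.70 to -0.26, limma adjusted P = 0.00501). The decrease passed the threshold in all 9 fits without 1 library and was -0.34 without control replicate 2, again the highest control (limma adjusted P = 0.00422). In *Celsr3* mutants the log2 difference was -0.10 (interval -0.32 to 0.13, limma adjusted P = 1.00), and it was 0.05 without control replicate 2 and -0.21 without control replicate 3. The direct difference between the mutants was -0.38 (limma adjusted P = 0.0158). It missed the threshold without *Fzd3* mutant replicate 1, *Fzd3* mutant replicate 2 or *Celsr3* mutant replicate 2 (limma adjusted P = 0.0584, 0.0539 and 0.0501), and without moderation of variances (0.0867). The RefSeq promoter window of *Vangl2* lies wholly within an annotated exon of the gene and is not shown.

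Its paralog *Vangl1* (XLOC_021129; chr3:102153583-102204693, minus strand) was expressed at the bottom of the range. *Vangl1* was at 1.46, 1.61 and 1.83 CPM in controls, at 2.55, 1.99 and 2.41 CPM in *Fzd3* mutants and at 1.75, 1.74 and 1.88 CPM in *Celsr3* mutants. All *Fzd3* mutant libraries were above the others. The log2 difference of 0.40 in *Fzd3* mutants (interval 0.10 to 0.70) barely passed the threshold (limma adjusted P = 0.0481). That call was lost in 7 of the 9 fits without 1 library. Its limma adjusted P was 0.140 and 0.110 without control replicates 1 and 2, and 0.155 and 0.104 without *Fzd3* mutant replicates 1 and 3. It was 0.0611, 0.0652 and 0.0588 without *Celsr3* mutant replicates 1, 2 and 4. The call was also lost in a fit of the compared genotypes alone (limma adjusted P = 0.0783) and with a pseudocount of 0.1, at a log2 difference of 0.48 (limma adjusted P = 0.0524). In *Celsr3* mutants the log2 difference was 0.11 (interval -0.20 to 0.41, limma adjusted P = 1.00), and the direct difference between the mutants was 0.29 (limma adjusted P = 0.132). Without a variance trend that difference passed the threshold (limma adjusted P = 0.0448). Of the summed Vangl CPM per kb, *Vangl1* made up 0.960 ± 0.250% for controls and 1.85 ± 0.233% for *Fzd3* mutants (s.d., n = 3), so nearly all Vangl transcript was *Vangl2* in every genotype. No promoter entry was found for *Vangl1*.

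*Prickle2* (XLOC_027738; chr6:92370908-92706155, minus strand) encodes a LIM domain protein that binds Vangl at the cell cortex, and it showed the largest rise among the members. Its most upstream RefSeq promoter, of 4 for the gene, is shown for that reason. The 250 bases lie at chr6:92706185-92706434 on the minus strand of GRCm38.p6, in no annotated exon, and end 30 bases before the annotated gene. Capitals would mark a Tcf/Lef or Rbpj core, and there is none in this window.
Prickle2 promoter: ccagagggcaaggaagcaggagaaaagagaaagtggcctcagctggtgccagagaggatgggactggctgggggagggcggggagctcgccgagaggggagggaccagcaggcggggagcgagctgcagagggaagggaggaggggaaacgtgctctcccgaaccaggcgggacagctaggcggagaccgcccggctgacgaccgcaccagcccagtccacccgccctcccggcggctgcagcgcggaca

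This window is 70% G and C with 18 CpG dinucleotides. *Prickle2* was at 33.7, 32.2 and 33.5 CPM in controls, at 61.6, 52.6 and 48.4 CPM in *Fzd3* mutants and at 34.3, 32.8 and 29.8 CPM in *Celsr3* mutants. The *Fzd3* mutant libraries were all above the other 6, which overlapped each other. *Prickle2* rose by 63.6% in *Fzd3* mutants (log2 difference 0.70, interval 0.51 to 0.88, limma adjusted P = 0.000188). The log2 difference was 0.60 to 0.77 over the 9 fits without 1 library, all past the threshold. In *Celsr3* mutants it was -0.04 (interval -0.22 to 0.15, limma adjusted P = 1.00), and the mutants differed directly by 0.73 (limma adjusted P = 0.000179).

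*Prickle1* (XLOC_011671; chr15:93499114-93595891, minus strand), its paralog with the same binding partners, was at 22.1, 34.2 and 31.7 CPM in controls. It was at 29.4, 27.4 and 28.6 CPM in *Fzd3* mutants and at 20.7, 24.6 and 28.6 CPM in *Celsr3* mutants. The 3 genotypes overlapped, and controls alone spanned the range of the *Fzd3* mutants. The log2 differences were -0.02 in *Fzd3* mutants (interval -0.34 to 0.31, limma adjusted P = 0.941) and -0.23 in *Celsr3* mutants (interval -0.56 to 0.09, limma adjusted P = 0.994). Single controls moved both values, to -0.21 and -0.42 without control replicate 1 and to 0.10 and -0.11 without control replicate 2, with no call in any fit. *Prickle2* made up 48.8 ± 2.66% of the summed Prickle CPM per kb in *Fzd3* mutants, against 36.8 ± 5.88% in controls (s.d., n = 3). The *Fzd3* mutant shares were above every control.

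The Dishevelled genes encode scaffolds that carry the signal from Frizzled receptors into the cell, both in planar polarity and in the beta-catenin branch of Wnt signalling. *Dvl1* (XLOC_022823; chr4:155847402-155859303, plus strand) was the only one of the family above controls in *Fzd3* mutants. Its promoter is shown because it rose together with *Prickle2* and holds a motif match. The 250 bases lie at chr4:155847152-155847401 on the plus strand of GRCm38.p6, in no annotated exon, directly before the annotated gene. Capitals mark the Rbpj core, whose first base lies 171 bases upstream of the RefSeq start.
Dvl1 promoter: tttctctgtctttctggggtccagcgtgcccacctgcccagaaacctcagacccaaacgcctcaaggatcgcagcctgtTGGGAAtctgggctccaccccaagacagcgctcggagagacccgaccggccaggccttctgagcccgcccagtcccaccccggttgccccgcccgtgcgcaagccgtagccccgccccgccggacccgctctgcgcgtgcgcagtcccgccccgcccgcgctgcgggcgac

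The match is a description of the letters and not evidence of binding. Of the 12 promoter entries, which cover 8 of the 10 members, the Rbpj core was also found once in the *Vangl2* entry and 2 times in an internal *Prickle2* entry. The Tcf/Lef core was found once, in another internal *Prickle2* entry. Of all promoters of this length, 21.6% hold the Rbpj core and 13.8% the Tcf/Lef core.

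*Dvl1* was at 79.0, 82.6 and 87.9 CPM in controls, at 91.3, 97.5 and 91.6 CPM in *Fzd3* mutants and at 82.1, 77.2 and 83.9 CPM in *Celsr3* mutants. *Fzd3* mutants were above all other libraries, by a small margin. The log2 difference was 0.17 (interval 0.05 to 0.28, limma adjusted P = 0.0328). It missed the threshold without control replicate 1 or 2 (limma adjusted P = 0.117 and 0.0825), without *Fzd3* mutant replicate 1 or 2 (0.0577 and 0.122) and after correction for GC content and length (0.0614). Without a variance trend or without moderation it was also lost (limma adjusted P = 0.0673 and 0.0690). In *Celsr3* mutants it was -0.04 (interval -0.15 to 0.08, limma adjusted P = 1.00). The mutants differed by 0.20 (limma adjusted P = 0.0137), which was lost without *Fzd3* mutant replicate 2 or *Celsr3* mutant replicate 2 (limma adjusted P = 0.0596 and 0.0616).

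*Dvl3* (XLOC_011959; chr16:20516982-20534010, plus strand) moved the opposite way. It was at 74.2, 78.9 and 75.0 CPM in controls, at 66.0, 64.9 and 67.4 CPM in *Fzd3* mutants and at 76.3, 83.2 and 73.8 CPM in *Celsr3* mutants. All *Fzd3* mutant libraries were below all others. The log2 difference in *Fzd3* mutants was -0.20 (interval -0.31 to -0.09, limma adjusted P = 0.0136), lost without control replicate 2 (limma adjusted P = 0.0542) or *Fzd3* mutant replicate 2 (0.0503). In *Celsr3* mutants it was 0.03 (interval -0.08 to 0.14, limma adjusted P = 1.00), and the mutants differed by -0.23 (limma adjusted P = 0.00666).

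*Dvl2* (XLOC_004104; chr11:70000595-70012301, plus strand) is reported as uncertain. *Acadvl* on the opposite strand and *Mir324* overlap 19.7% of its exon bases, and whether counting used strand is not given in the sources used here. *Dvl2* was at 61.0, 62.5 and 60.5 CPM in controls, at 56.1, 56.3 and 53.4 CPM in *Fzd3* mutants and at 58.1, 59.2 and 60.1 CPM in *Celsr3* mutants. Both mutants were below every control. In *Fzd3* mutants the log2 difference was -0.15 (interval -0.24 to -0.05, limma adjusted P = 0.0237). It was lost without control replicate 1 or 2 (limma adjusted P = 0.0517 and 0.0783) or *Fzd3* mutant replicate 3 (0.0704). In *Celsr3* mutants it was -0.05 (interval -0.15 to 0.04, limma adjusted P = 1.00), and the direct difference between the mutants was -0.10 (limma adjusted P = 0.113). That difference passed the threshold after correction for GC content and length (limma adjusted P = 0.0424) and without moderation (0.0459). Over the Dvl family the opposite movements left the sum level, at 37.8 ± 0.680 CPM per kb for *Fzd3* mutants and 37.7 ± 0.166 for *Celsr3* mutants, against 38.2 ± 1.02 for controls (s.d., n = 3). The share of *Dvl1* in it was 49.5 ± 0.980% in *Fzd3* mutants and 43.5 ± 1.48% in controls.

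**Figure D2:**
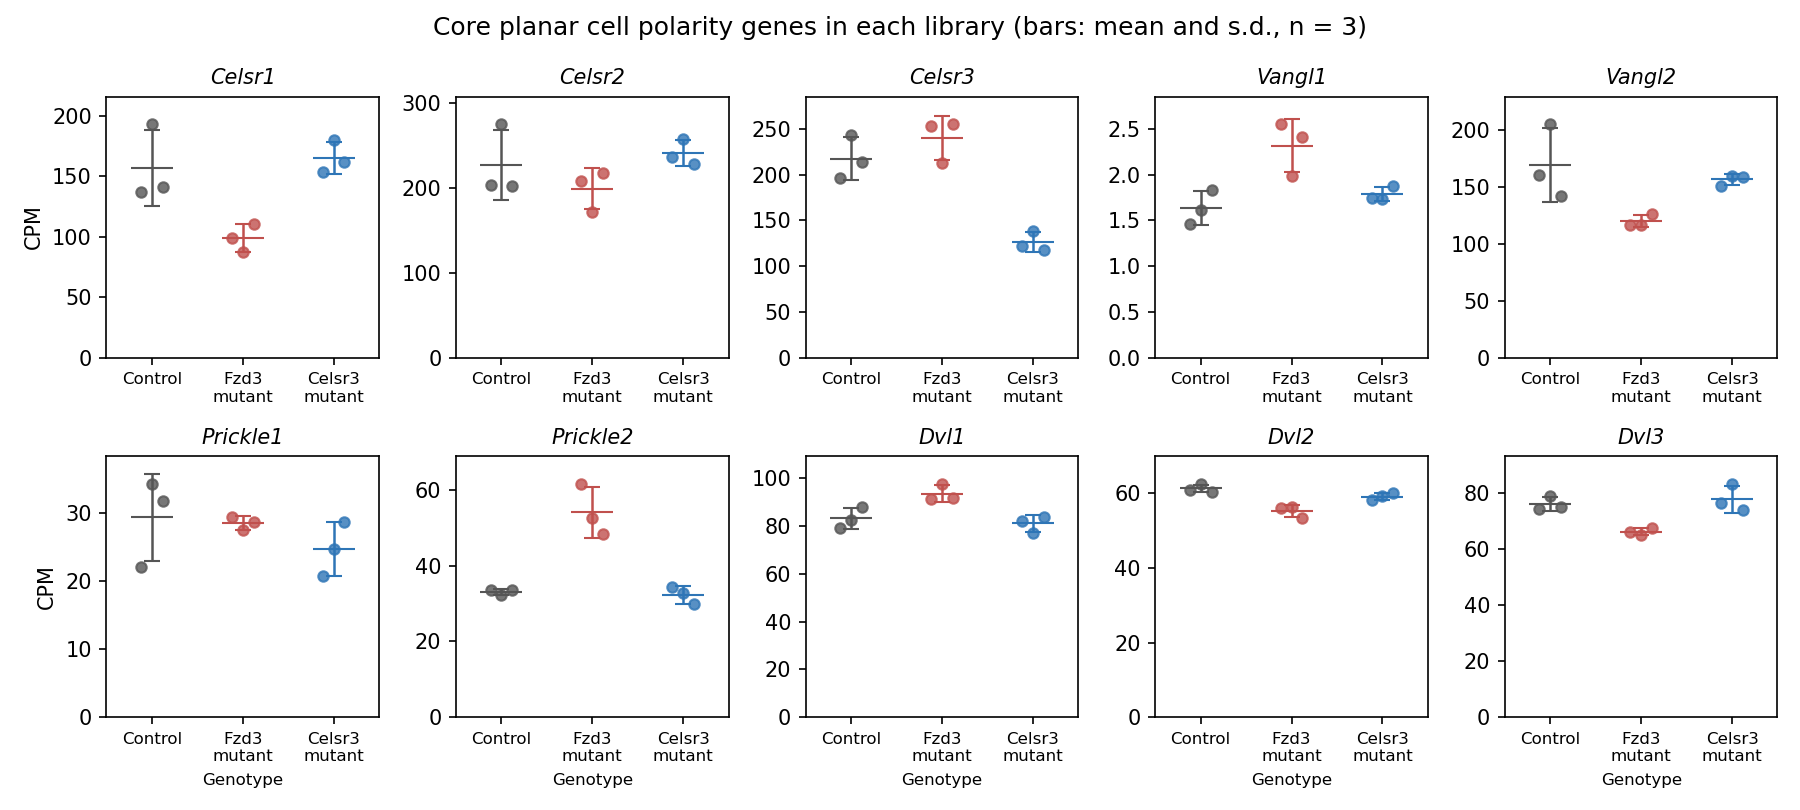
CPM of the 10 genes in each library, with the mean and s.d. of 3 libraries per genotype, by genotype on the horizontal axis. *Prickle2* lay between 48.4 and 61.6 CPM in *Fzd3* mutants and at most at 34.3 CPM elsewhere, and *Celsr3* was at 118 to 139 CPM in *Celsr3* mutants.

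Counted over the family, 7 of the 10 members passed the threshold in *Fzd3* mutants, 4 lower (*Celsr1*, *Vangl2*, *Dvl2* and *Dvl3*) and 3 higher (*Vangl1*, *Prickle2* and *Dvl1*). Over all genes, 29.8% passed it, 14.8% lower and 15.0% higher. The members were chosen with earlier results of these data known, which limits what these shares can show. The libraries of *Fzd3* mutants and controls did not overlap for these same 7 members, against 43.8% of all genes. The count fell without any 1 library except control replicate 3. That of all genes (4366 with every library) fell without each library, to 4202 without control replicate 3. Without control replicate 1, 4 members and 3412 genes passed, and without control replicate 2, 3 members (*Celsr1*, *Vangl2* and *Prickle2*) and 3118 genes. Without *Fzd3* mutant replicates 1, 2 and 3, 5 members passed each time, with 2958, 3167 and 4276 genes. Those 3 passed it in every fit without 1 library. In *Celsr3* mutants, 1 of 10 members passed the threshold, *Celsr3* itself, where 0.307% of all genes passed it and 0.177% were lower. *Celsr3* and *Dvl2* did not overlap controls there, 2 of 10 members, as was the case for 10.4% of all genes. Between the mutants, 6 of 10 members differed, *Celsr1*, *Vangl2* and *Dvl3* lower in *Fzd3* mutants and *Celsr3*, *Prickle2* and *Dvl1* higher. That count includes *Celsr3*, which is itself the gene mutated in the other genotype. Over all genes the share was 29.6%, with 14.3% lower and 15.3% higher. The median log2 difference of the members was -0.08 in *Fzd3* mutants, -0.04 in *Celsr3* mutants and 0.05 between the mutants, against 0.00 over all genes in each comparison. The median size of the difference was 0.19, 0.09 and 0.29 for the members, *Celsr3* included, and 0.14, 0.05 and 0.14 for all genes.

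**Figure D3:**
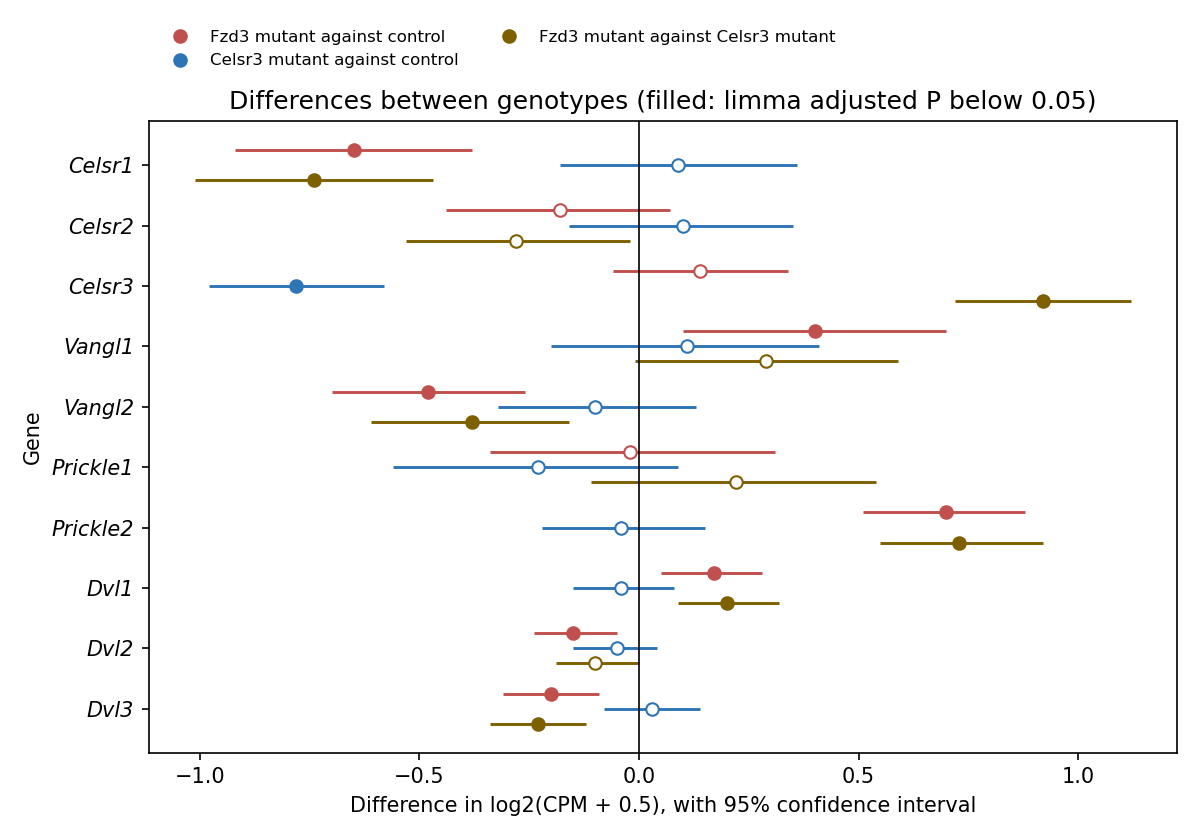
Differences in log2(CPM + 0.5) with 95% confidence intervals for the 10 genes in 3 comparisons; filled points passed the threshold of 0.05. In *Fzd3* mutants the values ran from -0.65 for *Celsr1* to 0.70 for *Prickle2*, and in *Celsr3* mutants *Celsr3* alone passed, at -0.78.

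Levels of different genes were compared as CPM per kb of annotated exon. In controls, *Vangl2* was highest at 24.3 ± 4.59, followed by *Celsr2* (19.7 ± 3.60), *Celsr3* (18.0 ± 1.98), *Dvl1* (16.6 ± 0.895) and *Celsr1* (14.3 ± 2.83; s.d., n = 3). The libraries of each of these overlapped those of its neighbour in this order. Below them came *Dvl3* at 11.9, *Dvl2* at 9.74, *Prickle1* at 6.75, *Prickle2* at 3.84 and *Vangl1* at 0.228 CPM per kb, each with all libraries above those of the next. The median over all genes with a length was 6.06 CPM per kb, so all members but *Prickle2* and *Vangl1* were above it, and the highest member exceeded the lowest 106-fold. With the length of the longest transcript in place of all exons, *Dvl3* moved up to follow *Celsr2*, and the other members kept their order. In *Fzd3* mutants the order began with *Celsr3* (19.9), *Dvl1* (18.7), *Celsr2* (17.3) and *Vangl2* (17.2), and *Celsr1* lay below *Dvl3* (10.3 CPM per kb) and overlapped *Dvl2* (8.77). *Prickle2* reached 6.28 CPM per kb and overlapped *Prickle1* (6.55), from which it was apart in controls and in *Celsr3* mutants. In *Celsr3* mutants the order was that of controls except for *Celsr3*, which at 10.5 CPM per kb lay between *Dvl3*, which it overlapped, and *Dvl2*.

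**Figure D4:**
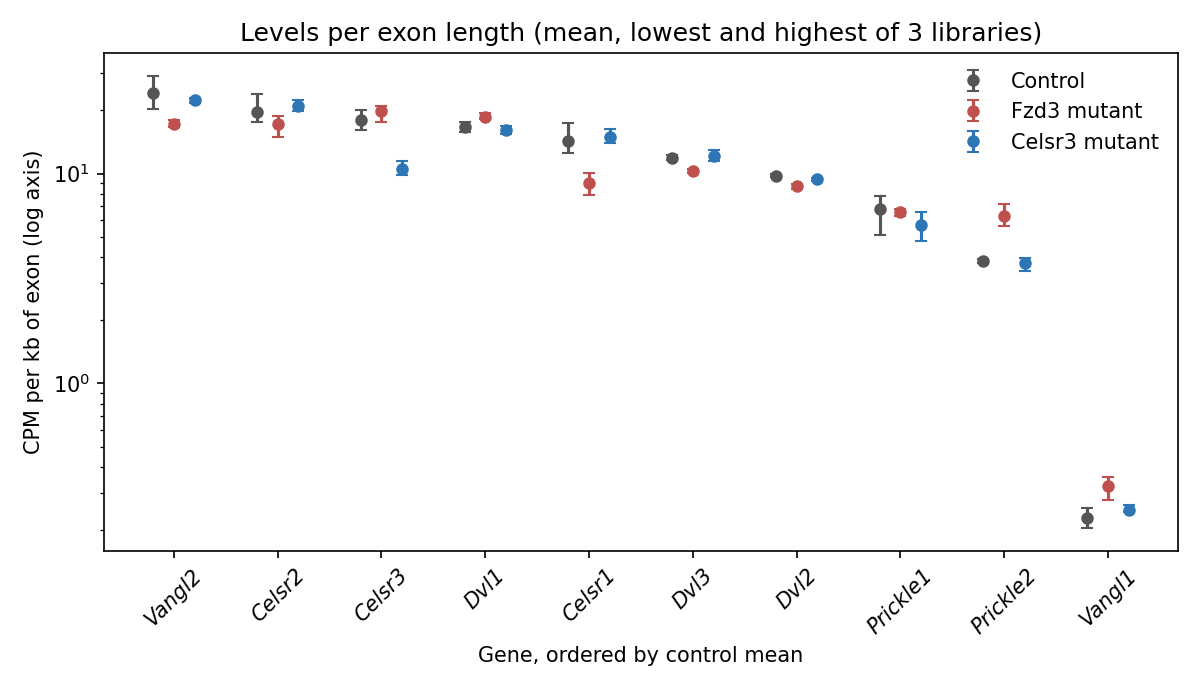
Mean CPM per kb of annotated exon on a log axis for the 10 genes, with the lowest and highest of 3 libraries per genotype, ordered by control mean. Controls ran from 24.3 for *Vangl2* to 0.228 for *Vangl1*, and *Celsr3* was at 10.5 in *Celsr3* mutants against 18.0 in controls.

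Other genes of the pathway were taken from 5 lists with 47 genes, 41 of them in the table. In *Fzd3* mutants 4 passed the threshold as lower and 5 as higher, and in *Celsr3* mutants 0 did with limma. Over all genes, 14.8% were lower and 15.0% higher in *Fzd3* mutants and 0.307% passed in *Celsr3* mutants. By list, these were 1 of 4 Wnt ligands, 1 of 6 receptors, 2 of 10 adaptors and regulators of traffic or turnover, 5 of 16 effectors and 0 of 5 Fat, Dachsous and Four-jointed genes. The list medians of the log2 difference in *Fzd3* mutants were 0.00, -0.14, -0.04, 0.05 and -0.12, in that order. In *Celsr3* mutants, where 800 genes of the whole table had an unadjusted P under 0.05, the medians were 0.02, -0.03, -0.01, -0.02 and 0.06. Closest to the threshold there were *Jun*, a transcription factor activated by JNK, at 0.51 (limma adjusted P = 0.0545), and the neuronal membrane protein gene *Islr2*, at -0.25 (limma adjusted P = 0.106).

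The calls of *Ptk7*, *Ankrd6*, *Daam1* and *Daam2* held in every fit without 1 library. *Ankrd6*, whose protein is the homolog of fly Diego and binds Dvl, was at 77.8, 76.5 and 74.4 CPM in controls and at 61.5, 59.3 and 62.3 CPM in *Fzd3* mutants. The log2 difference was -0.32 (limma adjusted P = 0.000324), and *Ptk7*, a receptor with an inactive kinase domain, was at -0.31 (limma adjusted P = 0.00447). The formin genes *Daam1* and *Daam2*, whose proteins bind Dvl, rose by 0.39 and 0.76 (limma adjusted P = 0.000212 and 0.00209). *Daam2* was at 7.13, 9.61 and 11.0 CPM in controls and at 16.0, 17.4 and 14.0 CPM in *Fzd3* mutants. The same 4 genes differed directly between the mutants, *Ankrd6* by -0.37, *Ptk7* by -0.27, *Daam1* by 0.32 and *Daam2* by 0.84 (limma adjusted P = 0.000161, 0.00866, 0.000836 and 0.00131). In that comparison 4 of the 41 genes were lower in *Fzd3* mutants and 9 higher, against 14.3% and 15.3% of all genes. *Wnt7b* at -0.36, *Wnt5a* at 0.63, *Islr2* at 0.22, *Mapk9* at 0.21 and *Mapk10* at 0.40 also passed in all 9 fits without 1 library (limma adjusted P = 0.0102, 0.00573, 0.00718, 0.0119 and 0.00558). The other 4 were *Gipc1* at -0.19, *Cdc42* at 0.16, *Dact1* at 0.23 and *Map2k4* at 0.12 (limma adjusted P = 0.0160, 0.0186, 0.0494 and 0.0411). They were all lost without *Fzd3* mutant replicate 1 (limma adjusted P = 0.0544, 0.0564, 0.181 and 0.0908). Without *Fzd3* mutant replicate 2, limma adjusted P was 0.0672 for *Cdc42*, 0.127 for *Dact1* and 0.0936 for *Map2k4*, and for *Map2k4* it was 0.0824 without *Fzd3* mutant replicate 3. Without *Celsr3* mutant replicate 1 it was 0.0504 for *Gipc1* and 0.0812 for *Map2k4*, and without *Celsr3* mutant replicate 2 it was 0.0682 for *Cdc42*, 0.0798 for *Dact1* and 0.0643 for *Map2k4*. Without *Celsr3* mutant replicate 4 it was 0.0501 for *Gipc1*, 0.177 for *Dact1* and 0.133 for *Map2k4*, and *Dact1* was at 0.0610 and 0.0538 without control replicates 1 and 3. Of 21 alternatives, all kept the calls of *Ankrd6*, *Daam1*, *Daam2*, *Wnt5a*, *Islr2* and *Mapk10* between the mutants. Of the others, 20 kept that of *Ptk7*, 20 that of *Mapk9*, 19 that of *Wnt7b*, 17 that of *Gipc1*, 16 that of *Cdc42*, 12 that of *Map2k4* and 9 that of *Dact1*. Moderation of variances was needed for the call of *Wnt7b*, at the same log2 difference of -0.36.

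The other 5 calls against controls lay nearer the threshold and were lost in some fits without 1 library, which have fewer samples. They were *Wnt7b* at -0.26, *Gipc1* at -0.18, *Cdc42* at 0.16, *Mapk9* at 0.17 and *Mapk10* at 0.34 (limma adjusted P = 0.0402, 0.0206, 0.0178, 0.0336 and 0.0139). All 5 were lost without control replicate 2 (limma adjusted P = 0.0995, 0.0657, 0.0632, 0.120 and 0.0557) and without *Fzd3* mutant replicate 1 (0.0586, 0.0649, 0.0546, 0.0535 and 0.0633). Without *Fzd3* mutant replicate 2, limma adjusted P was 0.127 for *Wnt7b*, 0.0648 for *Cdc42* and 0.0528 for *Mapk10*, and the call of *Mapk9* was lost at a log2 difference of 0.16. Without *Fzd3* mutant replicate 3 it was 0.0774 for *Wnt7b* and 0.0752 for *Mapk9*. The log2 differences over all 9 fits without 1 library ran from -0.34 to -0.15 for *Wnt7b*, -0.21 to -0.16 for *Gipc1*, 0.11 to 0.19 for *Cdc42*, 0.13 to 0.19 for *Mapk9* and 0.28 to 0.41 for *Mapk10*. Limma adjusted P was 0.0702 for *Mapk9* without control replicate 1, 0.0584 for *Gipc1* without control replicate 3 and 0.0502 for *Wnt7b* without *Celsr3* mutant replicate 4. Of 21 alternatives, 12 kept the call of *Wnt7b*, 17 that of *Gipc1*, 16 that of *Cdc42*, 14 that of *Mapk9* and 17 that of *Mapk10*.

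**Figure D5:**
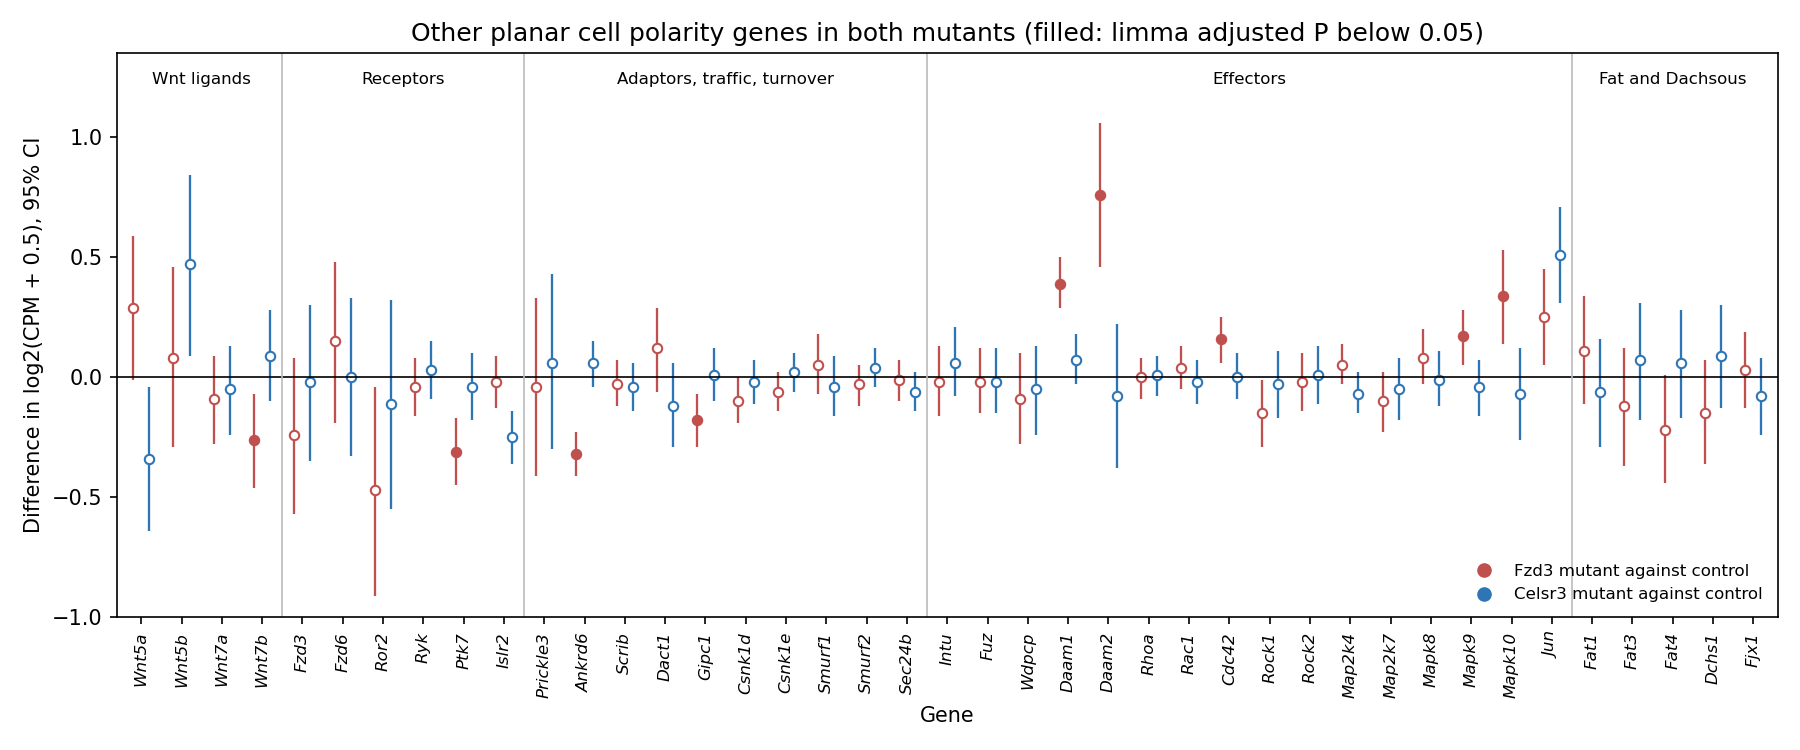
Differences in log2(CPM + 0.5) from controls, with 95% confidence intervals, for 41 further genes of the pathway in both mutants; filled points passed the threshold of 0.05. *Daam2* (0.76) and *Daam1* (0.39) were the highest filled points and *Ankrd6* (-0.32) the lowest.

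Markers of cell types also differed in *Fzd3* mutants, and in bulk cortex fewer cells of a type cannot be told apart from less RNA per cell. Of 10 apical progenitor markers, 8 were lower and 0 higher in *Fzd3* mutants, against 14.8% and 15.0% of all genes. Their summed CPM was 1462, 1522 and 1476 for controls, 1121, 1180 and 1075 for *Fzd3* mutants and 1333, 1377 and 1456 for *Celsr3* mutants. Of these markers, *Vim* and *Fabp7* were the most abundant in every library. All 6 basal progenitor markers were lower, at 412, 439 and 363 summed CPM for controls, 232, 253 and 288 for *Fzd3* mutants and 400, 456 and 464 for *Celsr3* mutants, led by *Eomes*. The median log2 difference was -0.46 for the apical and -0.71 for the basal list, beside -0.65 for *Celsr1* and -0.48 for *Vangl2*. Other members were at 0.70 (*Prickle2*), 0.40 (*Vangl1*), 0.17 (*Dvl1*), -0.15 (*Dvl2*) and -0.20 (*Dvl3*). *Celsr2* and *Prickle1* did not pass the threshold. Among oligodendrocyte precursor markers 3 of 5 were higher, at 29.4, 27.6 and 39.1 summed CPM for controls, 71.2, 62.6 and 38.0 for *Fzd3* mutants and 36.9, 26.9 and 32.2 for *Celsr3* mutants, led by *Pdgfra*. Endothelial markers were higher for 3 of 6, at 94.7, 96.6 and 98.6 summed CPM for controls, 143, 136 and 125 for *Fzd3* mutants and 105, 90.6 and 135 for *Celsr3* mutants, led by *Kdr*. Of the 11 listed neuron markers, 6 were lower and 2 higher, with 5607 to 5812 summed CPM for controls, 5836 to 5988 for *Fzd3* mutants and 5704 to 6014 for *Celsr3* mutants, led by *Dcx*.

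Among the other lists in *Fzd3* mutants, 2 of 6 microglia, 1 of 5 pericyte and 1 of 5 Cajal-Retzius markers were higher, where 15.0% of all genes were. Thalamic markers were lower for 3 and higher for 1 of 5, 1 of 3 striatal markers was lower, and *Hbb-y* alone was lower of 7 red cell genes. Interneuron, meningeal and choroid plexus markers gave 0 calls, as did every marker list in *Celsr3* mutants. The part of these cell types in the differences of the core genes was not tested. Values of long GC-rich genes also varied between libraries. Over 221 genes of at least 6000 bases and 55% G and C, the median log2 distance from the control mean was -0.06, 0.08 and -0.02 in control replicates 1 to 3. It was 0.02, -0.07 and 0.02 in *Fzd3* mutant replicates 1 to 3, and 0.02, 0.02 and -0.04 in *Celsr3* mutant replicates 1, 2 and 4. With values corrected for GC content and length, *Celsr1* was at -0.70, *Vangl2* at -0.48 and *Prickle2* at 0.70 in *Fzd3* mutants, each past the threshold (limma adjusted P = 0.000237, 0.00288 and 0.000188).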

How the data were processed

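The authors deposited CPM values (counts scaled to a fixed total) for 9 libraries, further scaled per library (column totals 990141 to 1012199) and without genes of low expression. The submitters' processing notes name FastQC, TopHat, TopHat2, Bowtie, Cufflinks 2.1.1, edgeR 2.12 and the builds GRCm38 and GRCh37, with no role given. The number of unused columns was 0. Of all values, 100% were whole multiples of 1 step per library (tolerance 0.05 of a step), from which reads were estimated. Few values are low enough to test the step closely, so no count test was run on these reads. Groups came from the sample labels.

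Differences were computed with limma 3.58.1 in R 4.3.3 on log2(CPM + 0.5), in a single fit of 9 libraries with a variance trend, Benjamini-Hochberg adjustment over 14670 genes and two-sided tests. A minimum mean of 0.5 CPM removed none. The fit was tested on simulated data, of which no result is given here. Tables and figures used Python 3.11.15, numpy 2.4.6, pandas 2.3.3 and matplotlib 3.10.9. Replicate libraries differed by 4.59 to 9.73 times the sampling noise of the median gene. Positions, exon lengths and overlaps come from GENCODE M21 (GRCm38), matched by symbol for 13750 of 14670 genes, and promoters from RefSeq (GRCm38.p6).

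Named besides the members were *Fzd3*, every gene of the pathway lists past the threshold in a mutant, and the 3 genes nearest to each Celsr gene. *Jun*, *Islr2* and the genes named only between the mutants were added after their values were seen. Members and lists were chosen with earlier results of these data known. The lists covered 5 groups of pathway genes and 14 cell types. Alternatives covered the pseudocount, filter, scaling, libraries, replicate block and variance moderation. Weights from reads and a correction for GC content and length were chosen after seeing the data.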

Additional observations from a re-analysis of the deposited data

How the results depend on the processing

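Over 21 alternative fits, the log2 difference of *Celsr3* in *Celsr3* mutants ran from -0.85 to -0.70. It missed the threshold with the replicate block (-0.71, limma adjusted P = 0.0699) and without moderation of variances (-0.78, limma adjusted P = 0.177), so that 0 members then passed in *Celsr3* mutants under either setting. The number of all genes past it in *Celsr3* mutants went from 45 to 29 with the block and to 24 without moderation. With the block, 4 instead of 7 members and 3629 instead of 4366 genes passed in *Fzd3* mutants, and 4 instead of 6 members and 2101 instead of 4346 genes between the mutants. Lost with the block were *Vangl1* (limma adjusted P = 0.0916), *Dvl1* (0.0733) and *Dvl2* (0.0629) in *Fzd3* mutants and *Vangl2* (0.0955) and *Dvl1* (0.0747) between the mutants. Of the other pathway genes, *Ptk7* (limma adjusted P = 0.0991), *Wnt7b* (0.0933), *Mapk9* (0.148), *Gipc1* (0.114), *Cdc42* (0.104), *Dact1* (0.174) and *Map2k4* (0.206) were lost with it between the mutants. Only *Celsr3* mutant replicate 4 carries that number, so the block also took this library out of the comparisons. Blocking and that loss cannot be told apart in these fits. Leaving the library out without a block gave a *Celsr3* difference of -0.73 (limma adjusted P = 0.0119) and 39 genes in *Celsr3* mutants. Same-numbered libraries were no more alike than others, which does not show whether any shared a litter. Deviations of same-numbered libraries correlated between -0.20 and 0.19 (7 pairs), and those of other pairs between -0.16 and 0.19 (20 pairs). Leaving out each library in turn gave 3 to 7 members past the threshold in *Fzd3* mutants, 1 in each case in *Celsr3* mutants and 4 to 7 between the mutants. It gave 2958 to 4312, 39 to 53 and 2971 to 4471 genes in these comparisons, and a *Celsr3* difference of -0.85 to -0.70. The fits without a library have fewer samples; the cause of the other changes was not tested. *Celsr1*, *Vangl2* and *Prickle2* passed the threshold in *Fzd3* mutants in all 21 alternatives, and *Vangl1* in 10 of the 20 that gave it a value, since raising the minimum mean to 5 CPM left it out. Other scalings moved libraries by at most 0.02 on the log2 scale. A planned edgeR test on reads was not run, since too few low values were there to test the recovered reads. Depth limits *Vangl1* most, with 73 to 132 reads per library.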
